A study of Mus musculus with 14 samples.

Results

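The 9 genes described here form a list named for secondary granules and late neutrophil development: S100a8, S100a9, Camp, Ngp, Ltf, Lcn2, Fcnb, Wfdc21 and Trem3 (in capitals S100A8, S100A9, CAMP, NGP, LTF, LCN2, FCNB, WFDC21 and TREM3). They were chosen by name and are 9 of the 22842 genes found in both deposited count tables. The list name is a label and was not tested. Outside the 9 genes, Trem3 was nearest by correlation to the primary granule genes Elane and Ctsg. Lcn2 was nearest to the same genes, more weakly (below, with some plates left out). The study sorted single Lin- Tom+ mouse cells, negative for lineage markers and positive for a reporter of inducible stem cell tracing, and read the 3' ends of their transcripts. Cells with at least 500 genes and 10000 counts were kept: 190 cells of mouse m4539 at day 3, 107 cells of mouse m4533 at day 10, and at day 17 288 cells of mouse m4528, 143 of m605, 189 of m606 and 93 from a plate that mixes m605 and m606. The labels call every group Lin- Tom+ and give no strain, genotype, sex, age or tissue, and the starting point of the days is not named. Days 3 and 10 rest on 1 mouse each, and the Lin- gate takes out most mature neutrophils. Day 17 cells of m4528 stand in the same table as the earlier cells, and those of m605 and m606 in the second table.

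Neutrophils load their granules in waves as they mature. The primary granule proteins, among them myeloperoxidase (Mpo) and neutrophil elastase (Elane), come first in promyelocytes, and the secondary granule proteins come later, in myelocytes and metamyelocytes, where the factor C/EBP epsilon (Cebpe) is needed for them. S100a8 and S100a9 encode the 2 subunits of calprotectin, a calcium- and metal-binding protein that fills the cytoplasm of mature neutrophils. Camp (cathelicidin), Ngp (neutrophilic granule protein), Ltf (lactoferrin) and Lcn2 (a siderophore-binding lipocalin) encode secondary granule proteins. Fcnb encodes a ficolin, a lectin made by myeloid cells, Wfdc21 a small protein with a whey acidic protein domain, and Trem3 a receptor of the Trem family on myeloid cells.

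The positions come from RefSeq on GRCm38.p6. S100a8 (chr3:90669071-90670034) and S100a9 (chr3:90692630-90695721) lie on chromosome 3, on opposite strands, with 22596 bases between them. Camp (chr9:109847377-109849456), Ngp (chr9:110419808-110423012) and Ltf (chr9:111019292-111042766) lie on chromosome 9, Lcn2 (chr2:32384637-32387739) and Fcnb (chr2:28076479-28084910) on chromosome 2. Wfdc21 lies at chr11:83746940-83752646 and Trem3 at chr17:48247677-48258848. The RefSeq promoter table held 7 of the 9 genes. The 250 bases before the start are printed for the S100 pair, which parted in single cells below, for Lcn2, most cells of which lacked S100a8, and for Ngp, 1 cell of which held most of its counts. Capitals mark matches to TTGCNNAA, letters bound by C/EBP factors, or to GAGGAAG, letters bound by PU.1-type ETS factors, on either strand. The regions are chr3:90668821-90669070 on the plus strand, chr3:90695722-90695971 on the minus strand, chr2:32387740-32387989 on the minus strand and chr9:110419558-110419807 on the plus strand.
S100a8: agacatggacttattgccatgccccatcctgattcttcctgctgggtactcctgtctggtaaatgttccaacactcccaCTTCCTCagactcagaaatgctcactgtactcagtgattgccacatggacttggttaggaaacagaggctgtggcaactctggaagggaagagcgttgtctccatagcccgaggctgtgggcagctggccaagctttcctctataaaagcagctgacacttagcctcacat
S100a9: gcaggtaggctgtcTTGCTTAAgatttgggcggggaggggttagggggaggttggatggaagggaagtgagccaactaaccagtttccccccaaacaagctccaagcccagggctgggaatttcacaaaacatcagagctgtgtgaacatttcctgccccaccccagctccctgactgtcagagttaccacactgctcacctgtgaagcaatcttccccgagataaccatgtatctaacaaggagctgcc
Lcn2: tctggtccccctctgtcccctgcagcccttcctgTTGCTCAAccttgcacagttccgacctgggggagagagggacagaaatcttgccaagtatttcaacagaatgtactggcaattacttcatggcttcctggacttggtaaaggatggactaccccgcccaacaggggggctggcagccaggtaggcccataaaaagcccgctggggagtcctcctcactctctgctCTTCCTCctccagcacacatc
Ngp: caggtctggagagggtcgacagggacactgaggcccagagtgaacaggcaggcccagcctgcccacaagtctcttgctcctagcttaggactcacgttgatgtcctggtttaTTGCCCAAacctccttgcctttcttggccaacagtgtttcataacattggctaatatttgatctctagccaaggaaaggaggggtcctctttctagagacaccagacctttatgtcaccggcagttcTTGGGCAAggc
TTGCNNAA was found in 5 of the 7 windows, and in 9.56% of 32851 mouse windows of the same length. GAGGAAG was found in 2 of the 7, against 10.6% of all windows. S100a8 carries the ETS-type letters once and no C/EBP-type match, while S100a9 carries the C/EBP-type letters once and no ETS-type match. A match here is only a match of letters.

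Plates 8 and 9 of m4528 stood apart from the others. On plate 8 of m4528, 1 cell carried all 9 genes above 100 counts. It held 4794 counts of S100a8, 3238 of S100a9, 4887 of Camp, 5001 of Ngp, 902 of Ltf, 2701 of Lcn2, 1615 of Fcnb, 330 of Wfdc21 and 207 of Trem3. The same cell had 3072 counts of Chil3, which encodes a chitinase-like protein of granulocyte progenitors, and 2691 of lysozyme (Lyz2). Of the genes used below to mark primary granule cells, it held only 111 counts of Mpo, 30 of Elane and 20 of Ctsg, but 738 of Ms4a3. It was the only kept cell with all 9 genes above 100 counts, and its total was 283528 counts. It also held 97 counts of the erythroid factor Klf1.

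The other 50 cells of plate 8 held low counts of the genes that were highest in this cell. S100a8 was counted in all 51 cells of the plate and exceeded 10 counts in 46. Camp exceeded 10 counts in 36 cells, Ngp in 22 and S100a9 in 14. Across the 50 remaining cells, which share the plate, Camp counts and total counts had a Pearson correlation of 0.96 (Spearman 0.95), Ngp 0.90 (0.87), S100a8 0.62 (0.94) and Fcnb 0.22 (0.54), with no test. Across 69 cells of plate 9 Camp had 0.03 (0.75) and S100a8 0.19 (0.75). All 23 cells of plate 8 with a stem cell marker set (at least 4 of 12 markers above 10 counts) had S100a8, with a median of 27 counts. Lcn2, although at 2701 counts in the top cell of plate 8, exceeded 10 counts in only 4 cells of that plate.

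Plate 9 of m4528 had a weaker form of this picture, with S100a8 counted in 69 of 70 cells and Camp in 61. Its cell with the most S100a8 had 1918 counts of S100a8 and 2081 of Camp, and another had 1155 and 702. The eosinophil granule gene Prg2, which is not a member, behaved alike on these plates: 1 cell of plate 8 held 4502 counts and 1 cell of plate 9 held 4503, and every cell of both plates held at least 1 count. Whether the low counts come from RNA or reads passed between wells was not tested. Detection of a single count was therefore not used to call a cell positive. A cell was called positive above 10 counts, and comparisons between mice are given with all plates and without plates 8 and 9 of m4528, which leaves 592 of the 713 day 17 cells. Results within cells are given without those plates, with the values over all plates beside them where they differ.

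**Figure D1:**
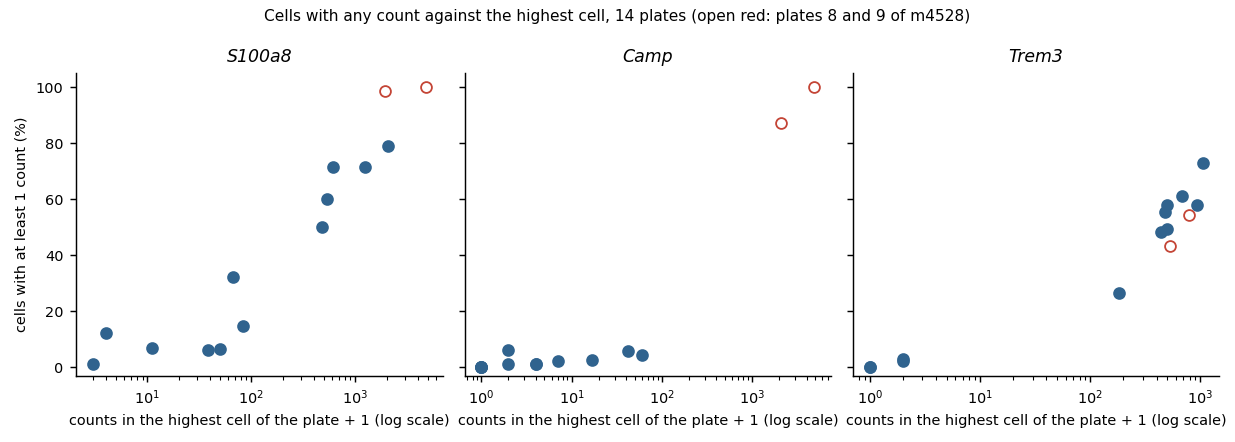
Percent of kept cells with at least 1 count of S100a8, Camp or Trem3 (y axis) against the counts in the highest cell of the same plate plus 1 (x axis, log scale), 1 point for each of 14 plates, with plates 8 and 9 of m4528 as open red circles. On plate 8, where the highest cell held 4794 counts of S100a8, the gene was counted in 51 of 51 cells.

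Before day 17 few cells held the genes. Among the 297 cells of days 3 and 10, no cell exceeded 10 counts of S100a9, Camp, Ngp, Ltf, Fcnb or Wfdc21, which allows a share of up to 1.58% of cells at day 3 and 2.80% at day 10 (3 cells; counting error only). S100a8 exceeded 10 counts in 2 cells of day 3, with 37 and 31 counts. The cell with 37 held 0 counts of Mpo and of Elane. The cell with 31 had 1203428 counts in all and 11096 genes, with 1110 counts of Mpo, 684 of Elane and 1150 of Klf1. Whether its well held more than 1 cell was not tested. At day 10 the genes exceeded 10 counts in a single cell, on plate 15, which held 938 counts of Trem3, 141 of Lcn2 and 49 of S100a8, together with 5453 of Mpo, 3166 of Elane and 181 of Cebpe, and S100a9, Camp, Ngp, Ltf and Fcnb at 0. Trem3 was the highest of the 9 genes in this cell.

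At day 17 all 9 genes were found above 10 counts, at very different frequencies. Trem3 was the most frequent. It exceeded 10 counts in 0% of cells of m4539 and 0.935% of m4533, against 17% of m4528 (95% exact binomial interval 12.9 to 21.9), 13.3% of m605 (8.19 to 20.0) and 11.6% of m606 (7.44 to 17.1). All 3 day 17 mice lay above both earlier mice, and the day 17 mean was 14% ± 2.75 (SD, n = 3), with a two-sided exact permutation p of 0.1, the smallest that 3 against 2 mice can give, and 0.3 after Benjamini-Hochberg adjustment over the 9 genes. The 9 day 17 plates ran from 8.51% to 24.7%, with plates 8 and 9 at 11.8% and 10%, inside the range of the other plates.

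Fcnb and Wfdc21 exceeded 10 counts in no earlier cell. Fcnb exceeded 10 counts in 7.64% of cells of m4528, 5.59% of m605 and 3.70% of m606, a mean of 5.65% ± 1.97 (SD, n = 3). Wfdc21 did so in 4.51%, 4.90% and 3.17% of cells of the same mice, a mean of 4.19% ± 0.904 (SD, n = 3). Both had an exact permutation p of 0.1 (two-sided; adjusted 0.3). Lcn2 exceeded 10 counts in 6.25% of cells of m4528, 2.10% of m605 and 5.82% of m606, against 0% and 0.935% earlier, with an exact permutation p of 0.2 (adjusted 0.45). On plates 8 and 9 these genes exceeded 10 counts in 8, 7 and 7 of 121 cells for Fcnb, Wfdc21 and Lcn2. Without those plates m4528 had 8.38% for Fcnb, 3.59% for Wfdc21 and 6.59% for Lcn2.

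The share of S100a8 cells differed between day 17 mice and rested on plates 8 and 9 in m4528. S100a8 exceeded 10 counts in 1.05% of cells at day 3 and 0.935% at day 10, and in 26.7% of cells of m4528, 6.99% of m605 and 4.76% of m606 (exact permutation p = 0.3, adjusted 0.54). With these plates left out the value of m4528 was 4.79%, close to the other day 17 mice, and the mean became 5.52% ± 1.28 (SD, n = 3; exact permutation p = 0.1). The share of m4528 cells was 16% for Camp with these plates and 1.20% without them, 7.99% and 0% for Ngp, and 6.60% and 1.80% for S100a9. In m605 and m606, S100a9 exceeded 10 counts in 1 cell each, Camp in 1 and 0 cells, and Ngp in 1 cell each. Ltf exceeded 10 counts in 2 of all 713 day 17 cells, the top cell of plate 8 and a cell of m605 with 22 counts of Ltf, 20 of Fcnb and 21 of Csf1r, the receptor of macrophage colony-stimulating factor.

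**Figure D2:**
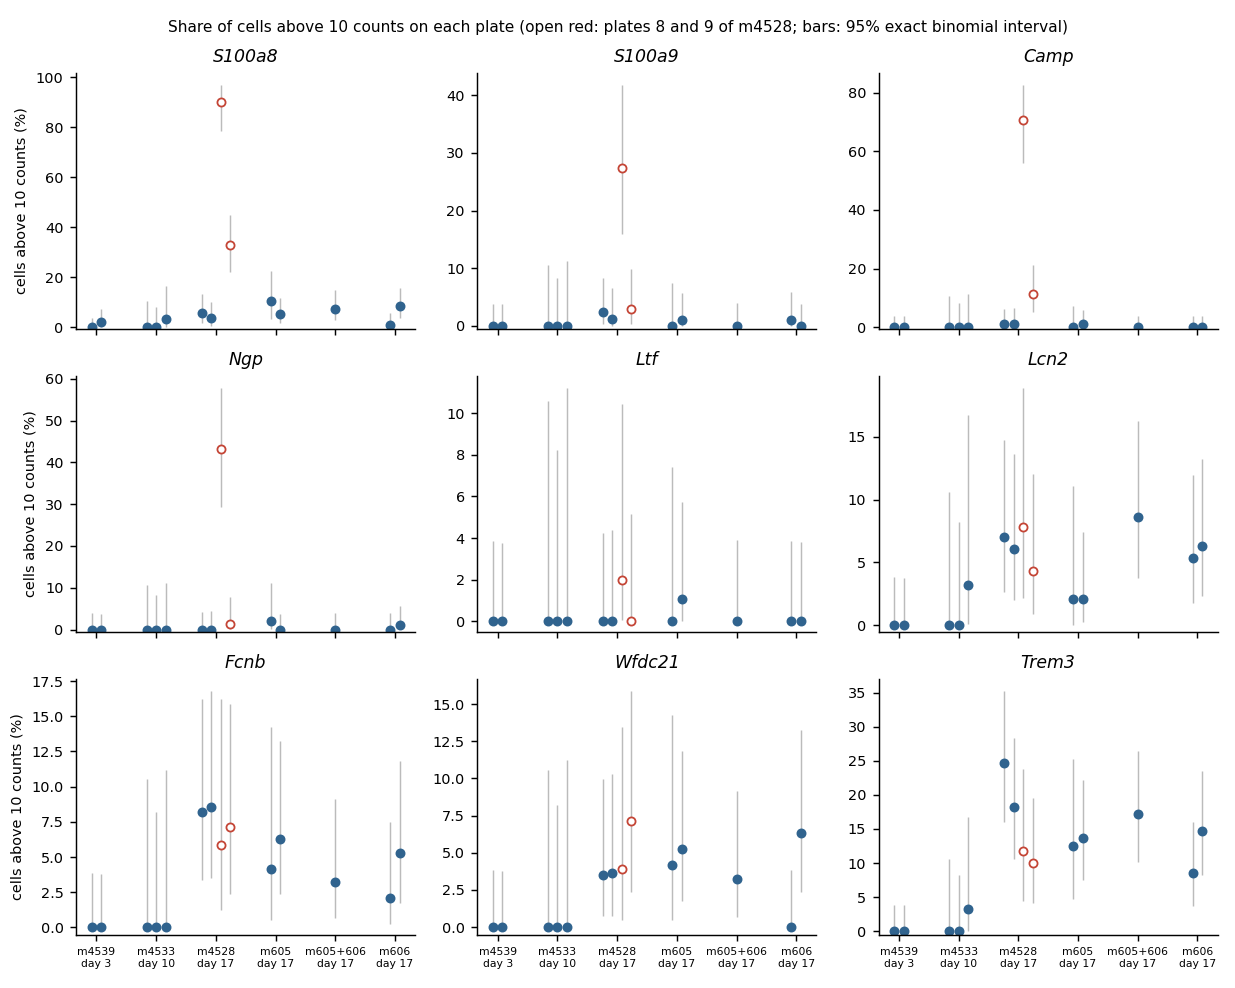
Percent of cells above 10 counts (y axis) for each gene on each of the 14 plates, grouped by mouse and day (x axis), with 95% exact binomial intervals as bars and plates 8 and 9 of m4528 in open red. S100a8, S100a9, Camp and Ngp stand apart on plate 8, with 90.2% of cells above 10 counts for S100a8, while Trem3, Lcn2, Fcnb and Wfdc21 do not.

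Across genes, 7 of the 9 members had a share above 10 counts that was higher in every day 17 mouse than in both earlier mice, Camp and Ltf being the exceptions. Of all genes above 10 counts in at least 10 cells, 43.9% had such shares, and of the 8 members that meet this filter 7 had. Without plates 8 and 9 it was 6 of 9, Ngp leaving, and 5 of the 5 members that meet the filter, against 43.8% of all genes that do; members that pass it only through day 17 cells had to be higher there. A share that is higher at day 17 was common in these data. The share of cells with 2 or more members above 10 counts was 0% at day 3 and 0.935% at day 10, and 24.0% in m4528, 8.39% in m605 and 6.35% in m606 (exact permutation p = 0.2). With plates 8 and 9 left out m4528 had 12%, and the p was 0.1.

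Summed over the cells of a mouse, the genes are given in CPM, counts scaled to the total counts of the mouse. S100a8 had 2.56 CPM at day 3, 1.75 at day 10, and 221, 149 and 86.8 in m4528, m605 and m606. Trem3 had 0.0691, 24.1, 187, 163 and 83.6 CPM in the same order. Lcn2 had 0.0346, 3.57, 66.8, 19.0 and 23.2 CPM. For Trem3 and Lcn2 the day 10 level came from the single cell of plate 15, which held 98.6% of the day 10 counts of Lcn2.

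Fcnb had 0.138 and 0.0499 CPM earlier and 81.5, 15.4 and 11.5 at day 17, and Wfdc21 0.0346 and 0.0250 against 14.5, 39.5 and 22.2. The 2 counts of Wfdc21 in all earlier cells set against 2605 at day 17 give a ratio of 748 (95% exact interval 207 to 6182, counting error only). S100a9, Camp and Ngp had 79.0, 145 and 86.3 CPM in m4528, but 2.40, 2.44 and 3.18 in m605 and 0.627, 0.0330 and 1.32 in m606. A single cell held 90.2% of the Ngp counts of m4528, and without plates 8 and 9 its Ngp level was 0.478 CPM. In these sums, more cells with a transcript and more transcript per cell cannot be told apart.

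In CPM, 8 of the 9 members were higher in every day 17 mouse than in both earlier mice, against 15.5% of all genes tested. Without plates 8 and 9, 7 of the 8 members tested were, against 14.1%. The earlier mice held 2 counts each of S100a9, Ltf and Wfdc21, 6 of Fcnb and 9 of Ngp in all. The other members had from 14 (Camp) to 966 (Trem3). Members with so few earlier counts passed the filter on low counts through day 17 mice, which favours higher values there. Their share and that of all genes, here and in the fits below, therefore cannot be compared as like with like. In edgeR's quasi-likelihood test with the table as a term, no member passed an adjusted p of 0.05 over 16740 genes, and of all genes 0.00597%, the single heat shock gene Hspa1a (named after its value was seen), did. At an unadjusted p under 0.05, 8 of the 9 members were higher, all except Trem3, against 5.36% of all genes. With plates 8 and 9 left out, 4 of the 8 members tested were higher at that level (S100a8, S100a9, Fcnb and Wfdc21), against 5.62% of all genes, and Lcn2, Trem3, Camp and Ngp were not. With the table as a term the difference rests on m4528 alone, because the second table holds only day 17 mice.

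The fit without the table term set 3 day 17 mice against 2 earlier mice, and there 2 members passed. S100a8 was higher by 6.31 on the log2 scale (SE 0.58; edgeR adjusted p = 0.0201) and Wfdc21 by 9.80 (SE 1.07; edgeR adjusted p = 0.0288), against 0.0836% of all genes higher. Neither passed when m4528 was left out (5.88, SE 0.54, for S100a8 and 9.96, SE 0.92, for Wfdc21; edgeR adjusted p = 0.0729 for both). Fcnb was next, with 8.73 (SE 1.34; edgeR adjusted p = 0.0802). Without plates 8 and 9 as well, S100a8 still passed (5.73, SE 0.66; edgeR adjusted p = 0.0424) and Wfdc21 did not (9.63, SE 1.43; edgeR adjusted p = 0.0960). DESeq2 with the table as a term called 8 of the 9 members higher, all except Trem3, against 1.28% of genes, with adjusted p from 7.11e-28 for S100a8 to 0.0192 for Lcn2. On the other plates DESeq2 called 3 of the 8 members tested, S100a8, Fcnb and Wfdc21, against 1.65% of genes.

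Within day 17 cells, the genes divided into a frequent and a rare set. Without plates 8 and 9, Trem3 exceeded 10 counts in 93 of 592 cells, S100a8 in 34, Lcn2 in 33, Fcnb in 32 and Wfdc21 in 22, whereas S100a9 did so in 5, Camp in 3, Ngp in 2 and Ltf in 1. Trem3 was the most frequent member in each of m4528, m605 and m606 and on the mixed plate, and S100a8 ranked 2 in m605, 3 in m606 and 4 in m4528. Trem3 cells also had the highest median count of the 5 frequent genes, 89 counts, against 57.5 for S100a8, 55 for Lcn2, 40 for Fcnb and 38.5 for Wfdc21. How far the order of detection follows these levels was not tested. With all plates Camp was next in frequency, above 10 counts in 47 of 713 cells, after Trem3 (106) and S100a8 (103).

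By number, 482 of the 592 cells had no member above 10 counts, 55 had 1, 24 had 2, 12 had 3, 11 had 4, 6 had 5 and 2 had 6. Where a cell had 1 member only, it was Trem3 in 40 of the 55 cells, Lcn2 in 6, S100a8 in 3, Fcnb, S100a9 and Ngp in 2 each, and never Wfdc21, Camp or Ltf. Among the 24 cells with 2 members, Trem3 was present in 23 and Lcn2 in 13. Among the 11 cells with 4 members, Trem3 was present in 11, S100a8 and Wfdc21 in 10 each, Fcnb in 9 and Lcn2 in 4. So on these plates Trem3 was found alone, Wfdc21 only beside others, and Camp, above 10 counts in 3 cells, only with 5 or 6 members. Over all plates 75 cells had 1 member, which was Trem3 in 40, S100a8 in 23 and Wfdc21 in 0. Camp was then present in 17 of the 43 cells with 2 members and in 12 of the 24 with 3.

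**Figure D3:**
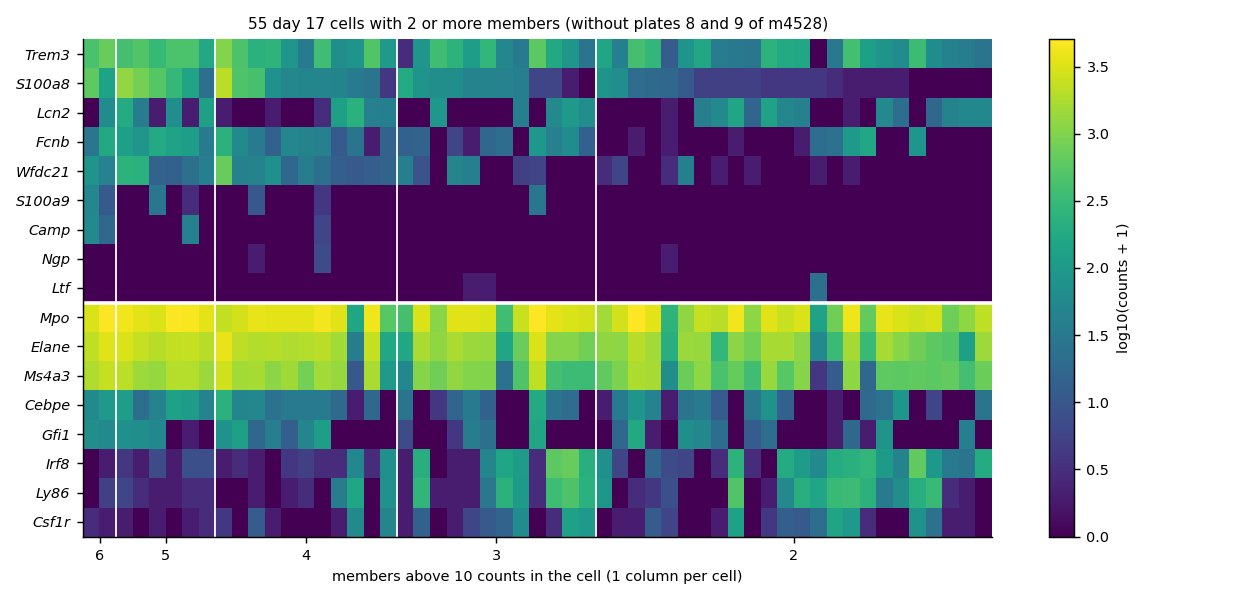
Counts of the 9 members (upper part) and of 8 other myeloid genes (lower part) in the 55 day 17 cells with 2 or more members above 10 counts, without plates 8 and 9 of m4528; each column is 1 cell, grouped by its number of members, and colour is log10 of counts plus 1. Trem3 fills most columns, Wfdc21 and S100a8 those with 4 or more members, and S100a9, Camp, Ngp and Ltf are nearly empty, while Irf8 and Ly86 are high mainly in cells with 2 or 3 members.

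Without plates 8 and 9, most Wfdc21, S100a8, Fcnb and Lcn2 cells held Trem3, the most frequent member. This did not hold for all rare members, as 2 of the 5 S100a9 cells and the 2 Ngp cells held no other member. Of the 55 cells with 2 or more members, 12 (21.8%) held every member more frequent than the rarest one they held. Over all plates 9 of 104 such cells (8.65%) did. Of the 22 Wfdc21 cells, 20 held S100a8 (90.9%, 95% exact interval 70.8 to 98.9), against 5.74% of all 592 cells, and 21 held Trem3, against 15.7%. The reverse shares, 20 of 34 S100a8 cells and 21 of 93 Trem3 cells with Wfdc21, are bounded by the number of Wfdc21 cells. The Wfdc21 cells with S100a8 were 6 of 6 in m4528, 6 of 7 in m605 and 5 of 6 in m606. Of the 34 S100a8 cells, 30 held Trem3 (88.2%), and 63 Trem3 cells lacked S100a8. Fcnb lay between, with 28 of its 32 cells holding Trem3, 20 holding S100a8 and 17 holding Wfdc21.

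Of the 33 Lcn2 cells 27 held Trem3 (81.8%), against 15.7% of all 592 cells. S100a8 was held by 10 of them (30.3%, 95% exact interval 15.6 to 48.7), against 5.74% of all cells, Fcnb by 10 and Wfdc21 by 8. The Lcn2 cells with S100a8 were 3 of 11 in m4528, 0 of 3 in m605 and 4 of 11 in m606. The 3 Camp cells all held S100a8, Fcnb, Wfdc21 and Trem3. Neither of the 2 Ngp cells, with 77 and 38 counts of Ngp, held any other member above 10 counts. With plates 8 and 9 included, 41.7% rather than 88.2% of S100a8 cells held Trem3, and on those plates S100a8 exceeded 10 counts in 69 cells, of which 13 held Trem3.

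S100a8 and S100a9 form the pair whose products make calprotectin, and S100a8 was mostly found without S100a9. Without plates 8 and 9, S100a8 exceeded 10 counts in 34 cells and S100a9 in 5, so few S100a8 cells could hold S100a9. Of these 5 S100a9 cells, 2 had more than 100 counts of S100a8. On the day 17 plates other than 8 and 9, 11 cells had more than 100 counts of S100a8, and S100a9 was at 0 in 6 of these and above 10 counts in 2. The highest S100a8 cell with no S100a9 had 2062 counts of S100a8 and 604893 counts in all, on plate 1 of m605. A cell of m606 had 1251 counts of S100a8 and none of S100a9, and another 849 and none. Over the 592 cells the sums were 8627 counts of S100a8 and 168 of S100a9.

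The cells of plates 8 and 9 differed in this pair. There S100a8 summed to 12297 counts and S100a9 to 4990. Of their 8 cells with more than 100 counts of S100a8, 6 held S100a9 above 10 counts, 3 of them above 100. All 3 cells with S100a9 above 100 counts held Camp above 100 counts, with 4887, 2081 and 702. A further cell of plate 9 had 1188 counts of S100a8, none of S100a9 and 8 of Camp. High S100a8 was found with and without high S100a9 and Camp. Because the reads come from 3' ends, a gene's counts also depend on how its 3' end is annotated, which was not tested for S100a9.

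**Figure D4:**
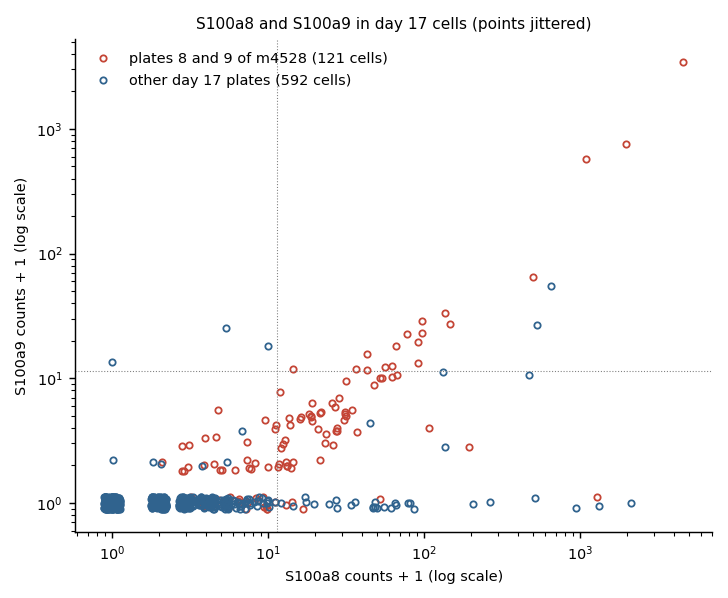
Counts of S100a8 (x axis) and S100a9 (y axis) plus 1, both on log scales, in each of 713 day 17 cells, with small jitter; red for the 121 cells of plates 8 and 9 of m4528, blue for the other 592, dotted lines at the threshold of more than 10 counts. Blue cells reach 2062 counts of S100a8 with S100a9 at 0, while red cells with both genes reach 4794 and 3238 counts.

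Most cells with members carried primary granule transcripts. A primary granule set was defined by more than 100 counts of at least 3 of Mpo, Elane, Ctsg and Ms4a3, a threshold chosen after the values were seen, and held 117 of the 592 cells (19.8%). It took in 89 of the 93 Trem3 cells, 32 of the 33 Lcn2 cells, 30 of the 32 Fcnb cells, 30 of the 34 S100a8 cells and all 22 Wfdc21 cells. Of the rare members it took in 4 of 5 S100a9 cells, 3 of 3 Camp cells, 1 of 2 Ngp cells and 0 of 1 Ltf cells. Over all plates the set held 140 of 713 cells and 51 of 103 S100a8 cells, 16 of 47 Camp cells, 11 of 25 Ngp cells and 15 of 21 S100a9 cells, and 101 of 106 Trem3, 38 of 40 Lcn2, 36 of 40 Fcnb and 28 of 29 Wfdc21 cells. Few cells with a stem cell marker set held the 5 frequent members. Of 161 such cells without plates 8 and 9, none exceeded 10 counts of S100a8 or Wfdc21, 2 did for Trem3, and 1 each for Lcn2 and Fcnb. S100a9 differed, with 3 of its 5 cells in the stem cell marker set, which held 27.2% of the 592 cells. Of these, the cell on plate 7 of m4528, with 27 counts of S100a9, had 801384 counts in all. It also carried megakaryocyte and primary granule markers above 10 counts. Whether its well held more than 1 cell was not tested. At least 1 count of S100a8 was found in 39.8% of the 161 cells with the stem cell marker set, and of Trem3 in 33.5%. Their median depth was 87511 counts, against 227448 in cells with the looser primary granule set at 10 counts. Erythroid marker sets held S100a8 above 10 counts in 4 of 126 cells.

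Markers of monocytes divided the members. Within the primary granule set, 53 of the 89 Trem3 cells also had at least 3 of 10 monocyte markers (among them Csf1r, Irf8 and Ly86) above 10 counts, and 36 did not. Wfdc21 was on the other side, with 4 cells carrying monocyte markers and 18 without them, and S100a8 had 9 and 21. Lcn2 was divided evenly, 16 and 16, as was Fcnb, with 14 and 16. Over all plates the cells with and without monocyte markers were 58 and 43 for Trem3, 5 and 23 for Wfdc21, 19 and 32 for S100a8, 19 and 19 for Lcn2, and 15 and 21 for Fcnb. By mouse, the Wfdc21 cells with and without monocyte markers were 0 and 6 in m4528, 2 and 5 in m605 and 2 and 4 in m606, and the Trem3 cells 20 and 13, 11 and 7, and 14 and 8. Irf8, a factor of the monocyte and dendritic branch, exceeded 10 counts in 55.9% of Trem3, 48.5% of Lcn2, 46.9% of Fcnb and 23.5% of S100a8 cells. It did so in 1 of 22 Wfdc21 cells, and in 19.8% of all 592 cells. Cebpe exceeded 10 counts in 52.7% of Trem3, 54.5% of Lcn2, 65.6% of Fcnb and 70.6% of S100a8 cells. It did so in 21 of 22 Wfdc21 cells, and in 9.46% of all 592 cells.

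Other neutrophil genes differed along the number of members in the cells of the primary granule set. With plates 8 and 9 left out, m4528, m605 and m606 gave 6, 6 and 4 cells with no member above 10 counts, 15, 9 and 17 with 1, 13, 7 and 7 with 2 or 3, and 6, 4 and 5 with 4 or more. Cebpe had 3.01, 34.4 and 37.6 CPM in the 3 mice without members and 182, 254 and 141 with 4 or more, means of 25 ± 19.1 and 192 ± 57.4 (SD, n = 3), with no overlap. Gfi1, a repressor that favours the neutrophil branch, went from 0, 0 and 30.6 to 138, 119 and 125 CPM. Irf8 went the other way, from 848, 210 and 574 to 7.44, 54.0 and 5.95 CPM, and so did Runx1, from 231 ± 53.6 to 54.7 ± 21.6 (SD, n = 3). With plates 8 and 9 kept, Cebpe had 32.2 ± 6.70 and 184 ± 61.6 CPM, while Irf8 overlapped, with 504 ± 267 and 163 ± 232 (SD, n = 3) and 430 CPM in m4528 with 4 or more members. Median depth also differed, 265793 counts in cells without members and 362686 with 4 or more; its part in these differences was not tested, and the values are scaled to depth.

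Of the 8 primary granule genes, 5 were higher in all 3 mice with 4 or more members than in any mouse with none: Elane, from 2081 ± 345 to 6260 ± 805 CPM, Prtn3, Ctsg, Ms4a3 and Serpinb1a. Mpo overlapped, at 7346 ± 776 and 9671 ± 2395 CPM (SD, n = 3). Elane, Ctsg and Ms4a3 also define the set. Over all genes at 5 CPM or more, 5.58% were higher in this way and 4.75% lower. Of the 9 genes of other granules and the oxidase at 5 CPM or more, of 15 measured, Hp (haptoglobin), Pglyrp1 (a peptidoglycan recognition protein) and Cyba were higher in this way. Hp had 280 ± 57.2 and 1133 ± 296 CPM, and Pglyrp1 14 ± 10.4 and 161 ± 97.4 (SD, n = 3). Of 12 cell cycle genes none was higher or lower without overlap.

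The step to 2 or 3 members showed little of this. Compared with cells without members, none of the 8 primary granule genes was free of overlap. Of 12 granulocyte factors 1 was (Runx1, lower), against 6.13% of all genes higher and 2.63% lower. Chil3 was higher there, 824, 8.99 and 92.3 CPM in m4528, m605 and m606 against 7.03, 1.19 and 0, and was at 8.40 ± 10.7 (SD, n = 3) in cells with 4 or more. The monocyte marker Ly86 had 512, 115 and 400 CPM with 2 or 3 members and 3.13, 55.5 and 29.1 with 4 or more, against 514 ± 51.6 (SD, n = 3) with none. No test was made on these levels, because the cells were grouped by the members.

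**Figure D5:**
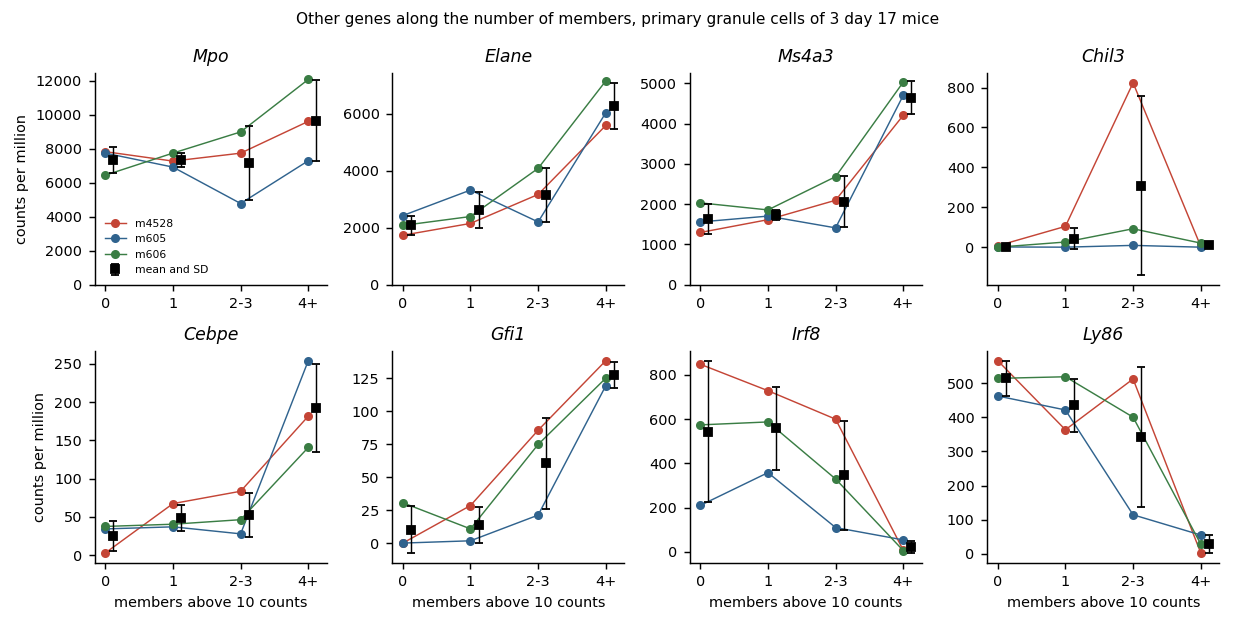
CPM of 8 genes (y axes) in primary granule cells with 0, 1, 2 to 3 and 4 or more members above 10 counts (x axis), for m4528, m605 and m606 at day 17 without plates 8 and 9, with the mean and SD over the 3 mice as black squares. Cebpe and Gfi1 are highest and Irf8 and Ly86 lowest in cells with 4 or more members, Mpo overlaps throughout, and Chil3 peaks at 2 to 3.

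The genes most like the members were sought by correlation of log2(CPM + 1) with the number of members over day 17 cells. The cells share mice, plates and depth, and the measure is a description. Over all 713 cells Elane came first (Pearson r = 0.59), then Hp (0.58), Hsd11b1 (0.58), Cldn15 (0.56), Ms4a3 (0.56), Sgms2 (0.55), Clec4a2 (0.55), Cebpe (0.54), Ly6c2 (0.53) and Igsf6 (0.53). Among genes outside the 9, Prg2 was there most like S100a8 (0.51), S100a9 (0.62), Camp (0.81) and Ngp (0.51). Between members, S100a9 had 0.81 with Camp and 0.77 with Ngp, and S100a8 0.57 with Camp. Over the 592 cells without plates 8 and 9 Elane again came first (0.72), then Clec4a2 (0.69), a C-type lectin receptor, Hsd11b1 (0.69), a glucocorticoid-activating enzyme, Sgms2 (0.66), Ctsg (0.65), Cebpe (0.64), Mgst2 (0.64), Ms4a3 (0.63), Mpo (0.62) and Ly6c2 (0.61). Clec4a2, Hsd11b1 and Sgms2 were themselves rare, above 10 counts in 43, 38 and 38 cells. The lowest values over these 592 cells were those of Car2 (-0.50), Tsc22d1 (-0.38), Fth1 (-0.33), Lmo2 (-0.31) and Tspan13 (-0.31).

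Over the same 592 cells single members had different companions. Outside the 9 genes, Trem3 was most like Elane, Ctsg and Mpo (0.72, 0.64 and 0.63), and Lcn2 like the same genes more weakly (0.38, 0.37 and 0.37). Among genes outside the 9, Clec4a2 was nearest to S100a8, Fcnb and Wfdc21 (0.44, 0.59 and 0.46), while S100a8 and Wfdc21 were nearer to each other (0.55), and Hsd11b1 was among the first 3 of each. With Wfdc21 came Ltb4r1, the receptor of leukotriene B4 on neutrophils (0.46). For S100a9, Camp, Ngp and Ltf no gene outside the 9 exceeded 0.31, each of them being above 10 counts in 5 cells or fewer.

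Other genes of the neutrophil programme were set beside the members from gene lists, in the sums per mouse. In edgeR with the table as a term none of these genes passed an adjusted p of 0.05 in either direction: 0 of 8 primary granule genes, 0 of 13 tested genes of other granules and the oxidase, 0 of 10 late surface genes, 0 of 12 granulocyte factors, 0 of 9 S100 genes, 0 of 11 relatives of the members and 0 of 12 cell cycle genes. The median difference was 8.91 on the log2 scale over the members and 3.04 over the primary granule genes, against -0.05 over all 16740 genes, and -0.61 over the other S100 genes. With plates 8 and 9 of m4528 left out it was 4.56 over the 8 members tested, 3.28 over the primary granule genes and -0.83 over the other S100 genes, against -0.06 over all genes. Basophil markers had 8.55 with all plates and 7.95 without plates 8 and 9, and eosinophil markers 8.26 and 5, so differences of the members' size were found in other lists too. Mpo had 45.5 and 184 CPM at days 3 and 10 and 2794 ± 480 at day 17, Elane 25.5 and 89.3 against 1139 ± 138, Ctsg 41.2 and 99.6 against 1378 ± 53.0, and Prtn3 504 and 295 against 1065 ± 148 (SD, n = 3). S100a10 and S100a6, expressed in many cell types, had 430 and 284 CPM, and 117 and 86.1 CPM, at days 3 and 10, and 620 ± 190 and 92.8 ± 46.0 at day 17. S100a1 had 213 and 199 against 234 ± 82.1, and S100a13 256 and 76.7 against 166 ± 86.6 (SD, n = 3).

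Among the relatives, Slpi, which like Wfdc21 has whey acidic protein domains, had 16.9 and 21.5 CPM earlier and 256, 437 and 247 at day 17. Treml2, a gene of the Trem family, had 93.0 and 65.0 CPM earlier and 36.7 ± 6.03 at day 17, Wfdc17 39.0 and 10 against 45.7 ± 59.9, and transferrin (Trf) 2.00 and 9.29 against 32.2 ± 13.3. Of the other granule genes, Cyba had 101 and 88.6 against 237 ± 99.6 CPM, Hp 9.47 and 33.8 against 217 ± 70.4, Cybb 4.91 and 26.6 against 46.8 ± 34.1, and Chil3 0.104 and 40.0 against 52.6 ± 75.5. Of the late surface genes, Anxa1 had 129 and 226 against 302 ± 130 CPM and Ifitm6 4.56 and 7.99 against 15.6 ± 11.1. Csf3r, the receptor of granulocyte colony-stimulating factor, had 11.3 ± 8.33 against 12.6 and 4.67 earlier (SD, n = 3). Of the granulocyte factors, Irf8 had 42.4 and 82.0 against 213 ± 82.2 CPM and Spi1 80.3 and 78.0 against 170 ± 28.5, while Myc and Myb had 339 ± 225 and 272 ± 64.7 at day 17 against 523 and 670, and 228 and 407, earlier. Of the cell cycle genes, Mcm6 had 436 and 775 against 703 ± 195 CPM, Birc5 261 and 260 against 612 ± 163, Top2a 212 and 221 against 401 ± 61.3 and Rrm2 80.4 and 229 against 351 ± 57.9 (SD, n = 3).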

How the data were processed

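Single Lin- Tom+ mouse cells were sorted into 96-well plates and read at the 3' end of transcripts with a modified Smart-seq2, per the labels' protocols. The deposited files are 2 tables, of 22971 and 34486 genes, whose values are whole raw counts; per the submitters' processing notes the build was GRCm38. Aligner, counter, molecular identifiers and strand: not given in the sources used here. Of 9357 barcodes, 1672 had at least 500 genes and 1010 of these at least 10000 counts; mice held 25482791 to 64257177 counts, and kept cells 10155 or more. A well barcode recurs in every plate (96 in all), so cells are named by plate and barcode. Doublets were not called, the cells having been sorted singly into wells.

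Counts were summed per mouse (5 mice; the mixed plate was left out) and tested with edgeR 4.0.16 in R 4.3.3 (quasi-likelihood, TMM, filterByExpr, Benjamini-Hochberg over all genes, day 17 against earlier, count table as a term); DESeq2 1.42.0 was an alternative. On simulated counts of 16740 genes this fit recovered 28.1% of 200 genes changed 4-fold and 93.5% of 200 changed 64-fold. Shares of cells were compared by two-sided exact permutation over mice. Nothing says whether mice were litter mates. The p-values measure the spread between these mice, which for the 2 earlier mice mixes mouse with day. In the fit with the table as a term, m4528 is fitted alone and adds nothing to that spread. Intervals are 95% exact binomial and cover counting error only.

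The members and all gene lists were chosen with earlier results of these data known. The text names the 9 members, of each list the 4 genes with the highest day 17 CPM (1 of them is not reported here), the 10 genes most and the 5 least correlated with the number of members, and the nearest 3 of a single member, of which some are given only without plates 8 and 9; genes named along the number of members are those without overlap, with Mpo, Chil3 and Ly86 chosen after their values were seen. Leaving out plates 8 and 9, the threshold of 100 counts and the stricter primary granule set were likewise chosen after seeing the data.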

Additional observations from a re-analysis of the deposited data

Results flagged for a closer look

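On plate 8 of m4528 the share of cells above 10 counts stood apart from the other 8 day 17 plates for 4 genes, the gap to the next plate being a larger part of the range than Dixon's test allows at the 95% level. S100a8 exceeded 10 counts in 90.2% of the cells of that plate, with the next plate at 32.9% and a median plate at 7.53%. Camp did so in 70.6%, with the next plate at 11.4%, Ngp in 43.1%, with the next at 2.08%, and S100a9 in 27.5%, with the next at 2.86%. About 1 in 20 groups exceeds this limit by chance, and 9 genes were looked at. The other 5 genes stayed under the limit on every plate, and the cause was not tested.

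The plate that mixes cells of m605 and m606 entered no comparison between days, because its cells cannot be given to a mouse, and it held 5 of the genes above their level in both earlier mice. Trem3 exceeded 10 counts in 17.2% of its 93 cells, Lcn2 in 8.60%, S100a8 in 7.53%, and Fcnb and Wfdc21 in 3.23% each. S100a9, Camp, Ngp and Ltf were above 10 counts in none of them, which allows a share of up to 3.23%.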

How the results depend on the processing

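Every difference in share between day 17 and the earlier days kept its direction, for the 9 genes and for 2 or more members, under the alternatives that change 1 choice (thresholds of 1, more than 5, 25 or 100 counts, 100 CPM, thinning to 10000 counts, other cell filters, each mouse left out, plates 8 or 8 and 9 left out); above 100 counts without plates 8 and 9, S100a9, Camp, Ngp and Ltf were at 0 in every mouse and have no direction. None of these tests could pass 0.05 with this number of mice. The number of genes called by edgeR was 1, and 14 without the table term, 0 for a slope over days, 0 with the filter on 500 genes alone, 12 without the table term and plates 8 and 9, and 0 to 1 with each mouse left out; DESeq2 called 390, and 562 without plates 8 and 9. The 9 members' fitted differences were above 0 in all fits that tested them. Ltf was not tested without plates 8 and 9. Neither Camp nor Ltf was tested with m4528 left out or with m605 left out. The share of Wfdc21 cells with S100a8 was 93.1% with all plates, 75.0% after thinning and 100% above 100 counts. Of cells with 1 of S100a8 and S100a9 alone, 96.6% held S100a8, and 99.4% at 1 count and 100% above 100 counts. No paired analysis was possible because plate numbers shared between days 3 and 17 belong to different mice. Depth limits the rare genes: in 592 cells a gene in none of them allows a share of up to 0.507%.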
